A study of Rattus norvegicus with 16 samples.

Results

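CXC chemokines are small secreted proteins that guide leukocytes along a gradient, and 5 of their genes were followed here in rat cortex after a blow to the brain: Cxcl1, Cxcl2, Cxcl10, Cxcl11 and Cxcl16. A gene entered if it had a probe set whose sole gene symbol in the array annotation was that gene. Each of the 5 genes had 1 such probe set, so the set made up 5 of the 14218 genes measured.

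The tissue was lateral cortex of male Wistar rats, 8 weeks old, hybridised as polyadenylated RNA to 16 Affymetrix rat arrays. Every animal, shams included, had a right parietal craniectomy, 4.8 mm wide, and 48 h of recovery before the second procedure. Injured rats then received a moderate fluid percussion of 3.3 ± 0.3 atm, in which a pulse of saline strikes the exposed dura, and the cortex of the contusion was taken after 3, 6, 12 or 48 h, with 3 arrays at each time. Sham rats had the same preparation without the percussion and gave 1 array at each of the 4 times. The shams of 3, 6 and 12 h were used as a group of 3 early shams, and the 48 h sham was kept apart as a single array. All animals were perfused with saline before dissection. The labels do not say whether arrays came from separate animals, so p-values measure the spread between these arrays, which may be technical.

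By receptor and inducer, these chemokines fall into classes. Cxcl1 and Cxcl2 are the rat counterparts of the interleukin-8-like chemokines: they bind Cxcr2 and draw neutrophils, and their transcription is driven by interleukin-1, tumour necrosis factor and the transcription factor NF-kB. Cxcl10 and Cxcl11 bind Cxcr3 on activated T cells and natural killer cells and are classical interferon-induced genes, although NF-kB also acts on them. Cxcl16 is made as a membrane-anchored protein that Adam10 and Adam17 can release, binds Cxcr6, and also acts as a scavenger receptor for oxidised lipoprotein.

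The genes of each pair lie side by side. Cxcl1 and Cxcl2 are neighbours on chromosome 14 with 0 other protein-coding genes between them, and so are Cxcl10 and Cxcl11, while Cxcl16 lies on chromosome 10. The 250 bases before each transcription start are shown because factors switched on by these inducers are known to bind near the starts of such genes. They were taken from RefSeq promoters of the GRCr8 assembly, which held all 5 genes, and are written 5′ to 3′ on the gene's strand with motif matches in capitals. In order, they are chr14:17479322-17479571 on the minus strand for Cxcl1, chr14:17467256-17467505 on the minus strand for Cxcl2, chr14:15988816-15989065 on the plus strand for Cxcl10, chr14:15973478-15973727 on the plus strand for Cxcl11 and chr10:55669951-55670200 on the minus strand for Cxcl16.
Cxcl1: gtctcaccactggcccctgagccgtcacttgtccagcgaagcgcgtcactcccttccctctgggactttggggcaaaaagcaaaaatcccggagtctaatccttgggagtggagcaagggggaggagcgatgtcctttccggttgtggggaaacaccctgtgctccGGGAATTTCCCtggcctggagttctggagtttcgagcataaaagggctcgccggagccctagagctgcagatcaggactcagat
Cxcl2: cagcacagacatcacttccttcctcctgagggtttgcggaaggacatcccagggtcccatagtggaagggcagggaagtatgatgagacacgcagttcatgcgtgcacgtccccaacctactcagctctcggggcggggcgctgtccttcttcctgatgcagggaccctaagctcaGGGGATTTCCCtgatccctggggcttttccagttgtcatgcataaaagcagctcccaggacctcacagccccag
Cxcl10: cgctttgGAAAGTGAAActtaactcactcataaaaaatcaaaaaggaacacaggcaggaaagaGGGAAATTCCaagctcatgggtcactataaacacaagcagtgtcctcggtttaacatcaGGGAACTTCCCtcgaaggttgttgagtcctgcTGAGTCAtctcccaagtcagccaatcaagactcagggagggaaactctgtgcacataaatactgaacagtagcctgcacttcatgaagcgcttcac
Cxcl11: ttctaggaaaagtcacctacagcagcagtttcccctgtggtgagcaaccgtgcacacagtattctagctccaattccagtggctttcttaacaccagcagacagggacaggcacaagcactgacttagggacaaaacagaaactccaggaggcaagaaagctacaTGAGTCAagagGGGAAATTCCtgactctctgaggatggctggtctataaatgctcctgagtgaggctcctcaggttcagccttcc
Cxcl16: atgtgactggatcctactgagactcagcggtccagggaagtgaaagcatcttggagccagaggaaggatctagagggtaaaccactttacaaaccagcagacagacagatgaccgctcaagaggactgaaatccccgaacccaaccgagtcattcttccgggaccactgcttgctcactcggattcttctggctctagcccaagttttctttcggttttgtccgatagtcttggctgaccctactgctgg

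All motifs were searched on both strands. The NF-kB consensus was matched in 4 of the 5 promoters: at -84 to -74 from the start in Cxcl1 and at -74 to -64 in Cxcl2, each as overlapping matches, at -187 to -178 and -128 to -118 in Cxcl10, and at -74 to -65 in Cxcl11. Of 33469 promoters of the same length, 6.33% held it. The core of the interferon-stimulated response element, GAAANNGAAA, was found in Cxcl10 alone among the 5, at -243 to -234, and in 3.41% of all promoters. An AP-1 site, TGANTCA, which reads as itself on the other strand, was found at -96 to -90 in Cxcl10 and at -85 to -79 in Cxcl11, and in 6.34% of all promoters. These letters were not found in the Cxcl16 window. A match describes the sequence and was not tested as a binding site.

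**Figure D1:**
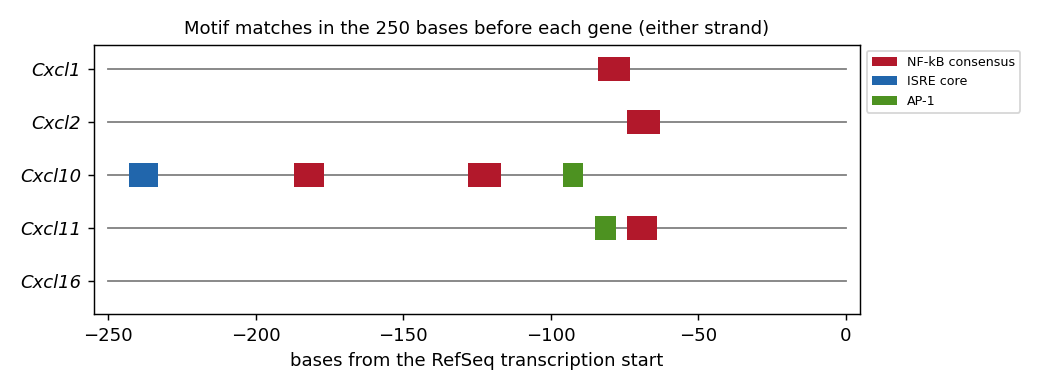
Positions of the motif matches in the 250 bases before each of the 5 genes; the x axis gives bases from the RefSeq start and colours give the motif, on either strand. The NF-kB consensus is matched in all but Cxcl16, and Cxcl10 carries all 3 motifs.

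The deposited values were log intensities with each probe set's median over the 16 arrays subtracted, so they show differences between arrays and not how strongly a gene was expressed or whether it was detected, and they cannot check the labelled tissue against its markers. All values below are log2 units above the mean of the 3 early shams, given for replicates 1, 2 and 3 in that order. Tests are from limma with Benjamini-Hochberg adjustment over the 14218 genes, with a threshold of 0.05 on the adjusted p for what is named called, higher or lower. The array of injured 12 h replicate 2 stood apart: its spike-in polyA control probe sets averaged -1.50, against -0.157 to 0.439 on the other 15 arrays, and its values had the widest spread over probe sets (SD 0.352, followed by 0.347 for injured 48 h replicate 2 and 0.28 or less elsewhere). Results that rest on it are given with and without it. The 2 most similar arrays, injured 3 h replicates 2 and 3, still differed by a root mean square of 0.202.

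Injury was followed by higher mRNA of all 5 chemokines within hours. At 3 h, 4 of the 5 were called higher than in early shams, at 6 and 12 h all 5, and at 48 h Cxcl16 alone. The background was 0.485% of all genes called higher (0.0985% lower) at 3 h, 1.98% (0.682% lower) at 6 h, 3.49% (1.38% lower) at 12 h and 6.37% (3.32% lower) at 48 h. At 3, 6 and 12 h every injured array lay above every early sham for all 5 members, as it did for 7.48%, 10.8% and 10.5% of all genes. At 48 h that held for Cxcl16, and for 14.7% of all genes. The members' median difference was 3.06, 4.24, 2.19 and 0.55 at the 4 times, where the median of all genes was between -0.02 and -0.01. Because the tissue was homogenised, fewer cells of a type and less RNA per cell cannot be told apart.

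**Figure D2:**
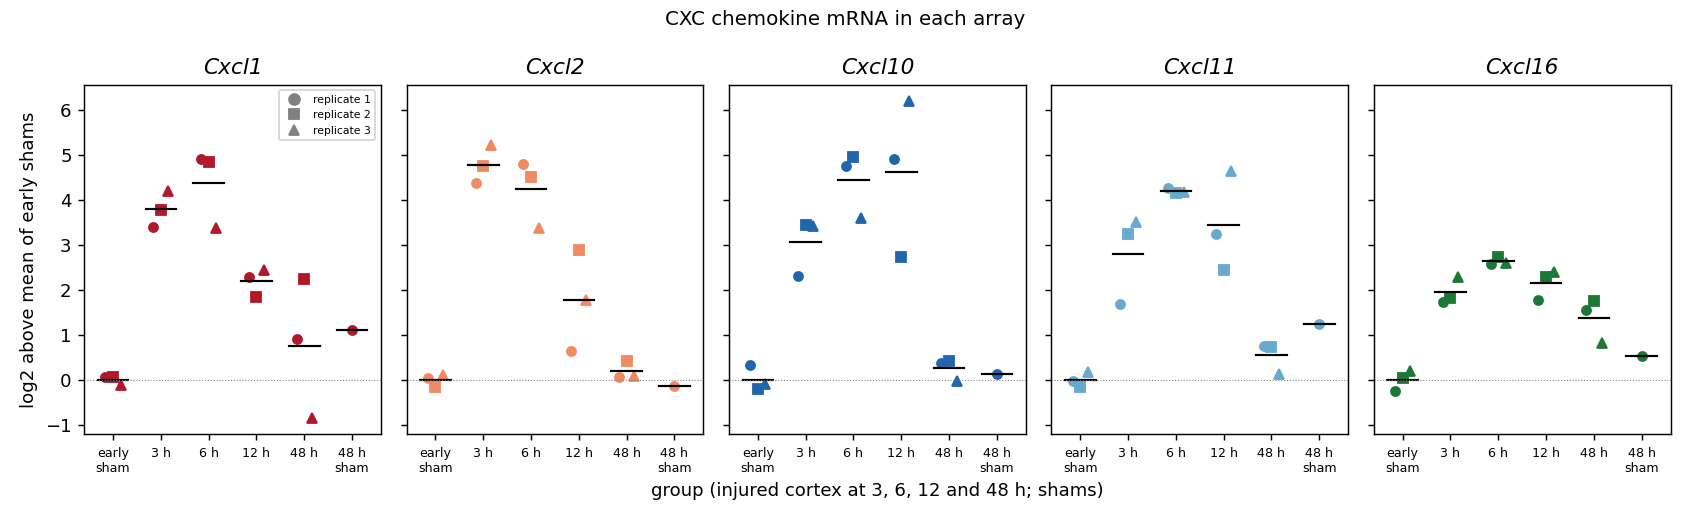
Each array's value for the 5 chemokines, in log2 units above the mean of the early shams (y axis), by group (x axis); symbols are replicates and black lines group means. Cxcl1 and Cxcl2 are high at 3 and 6 h and lower at 12 h, Cxcl10 and Cxcl11 are high at 6 and 12 h, and Cxcl16 alone has all 3 injured 48 h arrays above the early shams.

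Cxcl2, a neutrophil attractant also known as macrophage inflammatory protein 2, was already at its highest group mean at 3 h. Its arrays read 4.38, 4.75 and 5.22 at 3 h, 4.80, 4.52 and 3.39 at 6 h, 0.65, 2.89 and 1.77 at 12 h, and 0.07, 0.41 and 0.08 at 48 h, against 0.04, -0.15 and 0.10 in early shams and -0.13 in the 48 h sham. The 3 and 6 h arrays overlap each other and lie clear of every 12 h array, and the 48 h arrays are back near the shams. Cxcl2 rose 27.6-fold at 3 h (log2 difference 4.79, SE 0.45, adjusted p = 9.31e-05) and stood 18.9-fold above shams at 6 h (adjusted p = 0.000163). At 12 h it was 3.42-fold above them (1.77, SE 0.45, adjusted p = 0.0374), 12.4% of the fold at 3 h. That 12 h call was lost in 5 of the 6 fits that left out 1 array (each of the 3 early shams, injured 12 h replicate 2 or 3), with adjusted p between 0.00483 and 0.144 over the 6, and it was 1.21 without injured 12 h replicate 2.

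Cxcl1, the cytokine-induced neutrophil chemoattractant, was high at both 3 and 6 h. Its arrays read 3.40, 3.78 and 4.21 at 3 h, 4.91, 4.85 and 3.37 at 6 h, 2.28, 1.84 and 2.45 at 12 h, and 0.90, 2.24 and -0.86 at 48 h, against 0.07, 0.06 and -0.12 in early shams and 1.11 in the 48 h sham. The 3 and 6 h arrays overlap, the 12 h arrays lie below all of them, and the 48 h arrays spread on both sides of the shams (SD 1.55). Cxcl1 rose 13.9-fold at 3 h (3.79, SE 0.58, adjusted p = 0.00748) and 20.7-fold at 6 h (4.37, SE 0.58, adjusted p = 0.000887). The 12 h difference, 4.55-fold (2.19, SE 0.58), was just past the threshold (adjusted p = 0.0469) and was not called in any of the 6 fits without 1 array (adjusted p 0.0753 to 0.126). At 48 h the difference was 0.76 (95% interval -0.49 to 2.01, adjusted p = 0.464). It became 1.57 without injured 48 h replicate 3 (adjusted p = 0.0329, 0.0329 to 0.993 over all 13 alternatives).

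Cxcl10, the interferon-induced ligand of Cxcr3, had its highest group means at 6 and 12 h. Its arrays read 2.32, 3.45 and 3.42 at 3 h, 4.76, 4.95 and 3.60 at 6 h, 4.92, 2.74 and 6.21 at 12 h, and 0.38, 0.42 and -0.03 at 48 h, against 0.32, -0.21 and -0.10 in early shams and 0.14 in the 48 h sham. Every 6 h array lies above every 3 h array, the 12 h arrays are the widest apart of any group (SD 1.75) and overlap both, and the 48 h arrays lie near the shams. At 3 h the difference of 3.06 (SE 0.64) missed the threshold (adjusted p = 0.052), although all 3 arrays were above all early shams. It was called in 4 of 14 alternatives (adjusted p 0.000448 to 1.0 over the 14). Cxcl10 was called at 6 h, 21.6-fold (4.43, SE 0.64, adjusted p = 0.00162), and at 12 h, 24.6-fold (4.62, SE 0.64, adjusted p = 0.00094). Without injured 12 h replicate 2, the lowest of the 12 h arrays, the 12 h difference was 5.56.

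Cxcl11, another interferon-induced Cxcr3 ligand, had its highest mean at 6 h. Its arrays read 1.68, 3.24 and 3.51 at 3 h, 4.27, 4.15 and 4.19 at 6 h, 3.25, 2.44 and 4.65 at 12 h, and 0.76, 0.73 and 0.14 at 48 h, against -0.03, -0.15 and 0.17 in early shams and 1.25 in the 48 h sham. The 6 h arrays agree closely (SD 0.06), the 3 and 12 h arrays overlap, and all 3 injured 48 h arrays lie below the sham of that time. Cxcl11 rose 7.03-fold at 3 h (2.81, SE 0.48, adjusted p = 0.0152), 18.5-fold at 6 h (4.21, adjusted p = 0.000289) and 10.9-fold at 12 h (3.45, adjusted p = 0.00103). The 3 h call was lost without injured 3 h replicate 2 or 3 and without the sham of 6 h or of 12 h (adjusted p 0.0644 to 0.0944). As with Cxcl10, injured 12 h replicate 2 was the lowest array of its time, and the difference without it was 3.95.

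Cxcl16 had smaller differences at 3 and 6 h than the other members and was the one still called at 48 h. Its arrays read 1.73, 1.83 and 2.28 at 3 h, 2.57, 2.74 and 2.61 at 6 h, 1.77, 2.28 and 2.40 at 12 h, and 1.56, 1.75 and 0.82 at 48 h, against -0.24, 0.05 and 0.20 in early shams and 0.53 in the 48 h sham. All 12 injured arrays lie above all 4 shams, a separation whose share over all genes was not counted. Cxcl16 rose 3.85-fold at 3 h (1.94, SE 0.23, adjusted p = 0.000703), 6.22-fold at 6 h (adjusted p = 2.43e-05), 4.43-fold at 12 h (adjusted p = 0.000168) and 2.59-fold at 48 h (1.37, SE 0.23, adjusted p = 0.00287). At 48 h its fold was 41.7% of that at 6 h, where Cxcl1, Cxcl2, Cxcl10 and Cxcl11 stood at 8.15%, 4.13%, 4.85% and 7.91% of their own highest. The 48 h call against early shams held in all 13 alternatives. Whether Cxcl16 differed at 48 h from the other members was not tested.

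**Figure D3:**
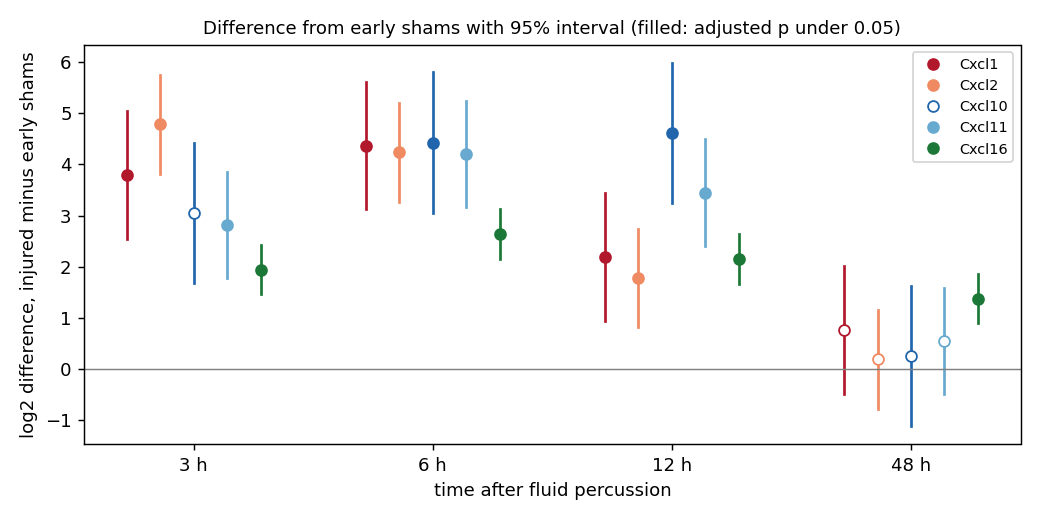
Log2 difference between injured arrays and early shams (y axis) with its 95% interval from limma for each chemokine at 3, 6, 12 and 48 h (x axis); filled points passed an adjusted p of 0.05. All 5 intervals lie above 0 at 3, 6 and 12 h, Cxcl10 at 3 h is not called, and at 48 h the interval of Cxcl16 alone is above 0.

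The single 48 h sham gave a weaker control. Against it none of the 5 was called at 48 h by limma (1 had an unadjusted p under 0.05), nor was any other gene (0.0% of all genes). Cxcl16 was 0.85 higher (SE 0.32, 95% interval 0.16 to 1.53, adjusted p = 0.563) with all 3 injured arrays above the sham. Cxcl11 was -0.71 (95% interval -2.18 to 0.76) with all 3 below it. The share of all genes with all 3 on the same side of this sham was not counted. The 48 h sham itself read 1.11 for Cxcl1, 1.25 for Cxcl11 and 0.53 for Cxcl16 above early shams. None of these was called (limma, 0 of 5 also at an unadjusted p under 0.05; 0.00703% of all genes called), with 95% intervals of -0.66 to 2.88, -0.22 to 2.72 and -0.16 to 1.21. With 1 array in that group, its spread was taken from the groups with replicates.

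Steps between times in injured cortex set the pairs side by side. From 3 to 6 h no member was called by limma (2 had an unadjusted p under 0.05; 0.795% of all genes were called higher and 0.401% lower). Every 6 h array was above every 3 h array for Cxcl10 (1.37, SE 0.64), Cxcl11 (1.39, SE 0.48) and Cxcl16 (0.69, SE 0.23). For Cxcl1 (0.58) and Cxcl2 (-0.55) the times overlapped. The share of all genes without overlap was not counted for any step between times, so such separation is description only. From 6 to 12 h again no member was called (3 at an unadjusted p under 0.05), in a comparison that called 0.0141% of all genes. All 12 h arrays lay below all 6 h arrays for Cxcl1 (-2.19, SE 0.58, adjusted p = 0.315) and Cxcl2 (-2.47, SE 0.45, adjusted p = 0.0815), and by little for Cxcl16 (-0.49). Cxcl10 (0.19) and Cxcl11 (-0.76) overlapped. Without injured 12 h replicate 2 the step of Cxcl2 was -3.03 and passed (adjusted p = 0.00744, 0.00744 to 0.51 over 13 alternatives).

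Between 3 and 12 h, a comparison added after the data were seen, Cxcl2 fell by 3.01 (SE 0.45, adjusted p = 0.00196), 8.07-fold, and was called in all 13 alternatives. It was the only member called, where 4.82% of all genes were called higher and 3.21% lower. Cxcl1 was -1.61 (SE 0.58, adjusted p = 0.107) with all 3 arrays below those of 3 h. Cxcl10 was 1.56 (SE 0.64, adjusted p = 0.15), and without injured 12 h replicate 2 it was 2.50 and called (adjusted p = 0.0108, 0.0108 to 0.406 over 13 alternatives). Cxcl11 was 0.64 (95% interval -0.40 to 1.68) and Cxcl16 0.20 (95% interval -0.28 to 0.69).

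From 12 to 48 h, 4 of the 5 were called lower, where 7.14% of all genes were called lower and 8.19% higher. Cxcl10 fell by 4.37 (SE 0.64, adjusted p = 0.000811), 20.6-fold, and Cxcl11 by 2.90 (SE 0.48, adjusted p = 0.00172), 7.48-fold, and both calls held in all 13 alternatives. With 1 array left out, the difference ran from -5.31 to -3.57 for Cxcl10 and from -3.41 to -2.30 for Cxcl11, the larger falls being those without injured 12 h replicate 2 and the smaller those without replicate 3. Cxcl2 fell by 1.58 (adjusted p = 0.0302) and Cxcl16 by 0.77 (adjusted p = 0.0343). Each of those calls was kept in 4 of 13 alternatives. Both were lost without injured 12 h replicate 2 or 3 and without injured 48 h replicate 1 or 3, that of Cxcl2 also without injured 48 h replicate 2. Without injured 12 h replicate 2 the values were -1.02 for Cxcl2 and -0.71 for Cxcl16. Cxcl1 was -1.43 (SE 0.58, adjusted p = 0.115), and -2.17 and called without injured 48 h replicate 2 (adjusted p = 0.0148, 0.0148 to 0.395 over 13 alternatives).

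The balance within each array shows the change of order without a test, since the pairs were set for their known roles and results of these data were known. The mean of Cxcl1 and Cxcl2 minus the mean of Cxcl10 and Cxcl11 was 1.89, 0.92 and 1.25 at 3 h, 0.34, 0.14 and -0.51 at 6 h, and -2.62, -0.22 and -3.32 at 12 h. At 48 h it was -0.08, 0.75 and -0.44, and in early shams -0.09 to 0.14. The neutrophil-attracting pair thus led in all 3 arrays at 3 h, neither led in all 3 at 6 h, and the interferon-induced pair led in all 3 at 12 h, by 0.22 in replicate 2 and by over 2 units in the others. Both pairs had faded at 48 h, to 0.48 and 0.40. Probe sets differ in how steeply they respond, so the difference compares changes from sham, not amounts of mRNA.

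**Figure D4:**
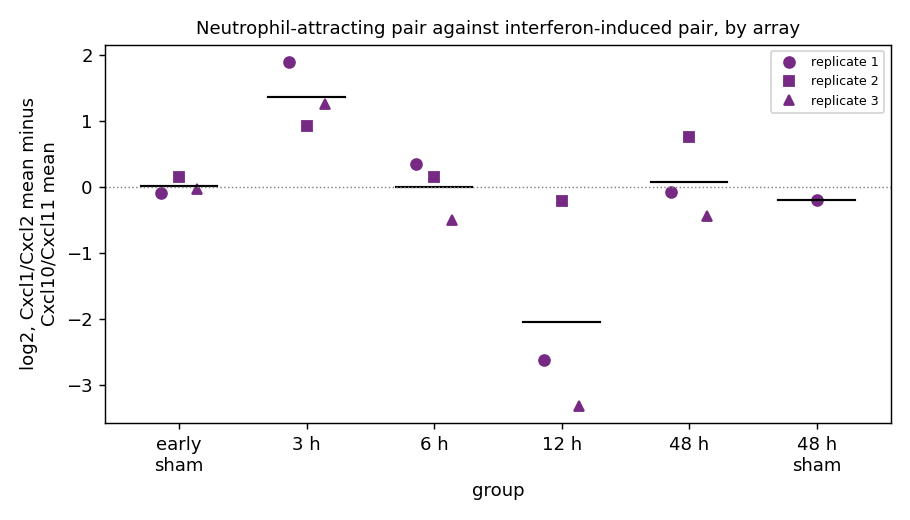
Mean of Cxcl1 and Cxcl2 minus mean of Cxcl10 and Cxcl11 in each array (y axis, log2, both relative to early shams), by group (x axis); symbols are replicates and black lines group means. The group mean goes from 1.35 at 3 h through -0.01 at 6 h to -2.05 at 12 h, with injured 12 h replicate 2 at -0.22 near the 6 h arrays.

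Over the 16 arrays, which share groups and platform, the 2 highest correlations between members were those within a pair. Pearson's r was 0.90 between Cxcl1 and Cxcl2 and 0.96 between Cxcl10 and Cxcl11, and the lowest of the 10 values, 0.67, was between Cxcl2 and Cxcl10. Among all other genes, the 3 most like Cxcl1 were Tnfaip3 (0.96), Nfkb2 (0.957) and Il1b (0.951). Those most like Cxcl2 were the CC chemokines Ccl3 (0.985) and Ccl4 (0.974) and the cytokine Il6 (0.963). After each other (0.956), Cxcl10 was nearest to Relb (0.938) and Irf1 (0.905), and Cxcl11 to Relb (0.94) and the endothelial adhesion molecule Sele (0.937). For Cxcl16 they were the monocyte attractant Ccl2 (0.964), the G-protein regulator Rgs16 (0.945) and Irf1 (0.931).

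Genes known to induce or restrain Cxcl1 and Cxcl2 rose early. Of 14 measured cytokines, NF-kB subunits and feedback genes (of 15 listed), 10 were higher at 3 h, 13 at 6 h, 9 at 12 h and 2 at 48 h, with medians of 1.35, 1.24, 0.75 and 0.30, and none was lower. Il1a, an interleukin-1, was 5.10 higher at 3 h (SE 0.30, adjusted p = 7.94e-07), 2.34 at 6 h and 0.66 (adjusted p = 0.237) at 12 h. Il1b, the other interleukin-1, was 5.14 higher at 3 h, 5.21 at 6 h and 2.88 at 12 h. Zfp36, which destabilises cytokine mRNA, was 2.86, 2.64 and 2.87 higher at these times, and Tnfaip3, an NF-kB inhibitor, 2.72, 2.93 and 1.48. At 48 h the genes called were Zfp36 (1.08, adjusted p = 0.0352) and Cebpd (0.95, adjusted p = 0.0233), and each call was lost in at least 4 of 6 fits without 1 array. The 48 h sham read 0.80 for Zfp36 and 1.25 for Cebpd. Without injured 12 h replicate 2, 6 of the 14 were called at 12 h.

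Interferon-pathway genes rose later. Of 15 measured (of 17 listed), 1 was higher at 3 h, 8 at 6 h, 10 at 12 h and 2 at 48 h, with medians of 0.16, 0.98, 1.67 and 0.36, and none was lower. The gene called at 3 h was Irf1, a transcription factor of the interferon response (2.29, SE 0.34, adjusted p = 0.00578; 2.85 at 6 h and 2.81 at 12 h). The antiviral genes Rsad2 and Isg15 differed little from shams at 3 h (0.30 and 0.16, neither called) and were 3.39 (adjusted p = 3.3e-05) and 2.74 (adjusted p = 1.06e-05) higher at 12 h. Gbp2, an interferon-induced GTPase, was 4.68 higher at 6 h and 4.25 at 12 h. The 2 genes called at 48 h were Gbp2 (2.43, adjusted p = 0.0127) and Irf9 (0.69, adjusted p = 0.043), in 3 and 1 of the 6 fits without 1 array. The 48 h sham read 1.59 for Gbp2 and 0.27 for Irf9. From 3 to 12 h 8 of the 15 were called higher, and from 12 to 48 h 10 were called lower. Neither interferon gene measured was called: Ifnb1 was between -0.16 and 0.04 and Ifng between 0.01 and 0.03 at the 4 times, and the centred values cannot show whether they were detected. Without injured 12 h replicate 2 the count at 12 h was 10 as well.

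Few of the other CXC ligands were called. Of 8 measured (of 10 listed), none was called at 3 h by limma (0 at an unadjusted p under 0.05), 1 was higher at 6 h, 2 were higher and 1 lower at 12 h, and none was called at 48 h (1 at an unadjusted p under 0.05). Cxcl9, the third Cxcr3 ligand and the neighbour of Cxcl10, was 0.54 higher at 6 h (SE 0.10, adjusted p = 0.00947) and 0.58 at 12 h (SE 0.10, adjusted p = 0.00496). The 6 h call was lost without injured 6 h replicate 2 or the 6 h sham. Cxcl13, a B-cell attractant, was 3.49, 2.06 and 2.96 on the 12 h arrays (2.84, SE 0.58, adjusted p = 0.0128; 0.0551 without the 6 h sham) and 0.14, 2.84 and 0.60 at 48 h, while the 48 h sham read 2.00. Cxcl12, the ligand of Cxcr4 that is made in resting brain, was lower at 12 h, at -0.51, -1.67 and -1.09 (-1.09, SE 0.23, adjusted p = 0.0169), a call lost without injured 12 h replicate 2, the 3 h sham or the 6 h sham.

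Among the receptors, Cxcr2 and Cxcr4 were the genes called against early shams. Of 7 measured CXC and atypical receptors (of 8 listed, Cxcr6 not among them), none was called at 3 or 6 h by limma (1 at an unadjusted p under 0.05 at each), 1 was higher at 12 h and 1 at 48 h. Cxcr2, the receptor of Cxcl1 and Cxcl2, read 0.15, 0.06 and 0.07 at 3 h, 0.26, 1.01 and 0.93 at 6 h, and 0.65, 2.11 and 0.76 at 12 h. All 6 and 12 h arrays lie above the early shams, which read -0.14, 0.05 and 0.10. Its 12 h difference was 1.17 (SE 0.29, adjusted p = 0.0352), and the call was lost in 4 of 6 fits without 1 array (each early sham, or injured 12 h replicate 2, without which it was 0.70). Cxcr4 was 0.80 higher at 48 h (SE 0.21, adjusted p = 0.0328), a call kept in 1 of 6 such fits. Cxcr3, the receptor of Cxcl10 and Cxcl11, was not called, with differences of 0.04, 0.12, 0.02 and 0.19.

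Of 6 measured neutrophil markers, 3 were called higher from 3 to 6 h. The mean of the 6 (of 10 listed, Mpo and Elane not among them) ranged from -0.06 to 0.14 on the 3 h arrays, from 1.63 to 2.99 at 6 h, from 2.45 to 2.99 at 12 h and from 0.20 to 1.68 at 48 h, against -0.13 to 0.16 in early shams and 0.44 in the 48 h sham. At 3 h none of the 6 was called by limma (0 at an unadjusted p under 0.05), and at 6 and 12 h S100a8, S100a9 and Il1r2 were higher. The other 3 were not called at 6 or 12 h: Camp was 0.19 and 0.21, Csf3r 0.48 and 1.46, and Mmp8 0.56 and 0.18. S100a9, a calcium-binding protein abundant in neutrophils, was 0.35 (SE 0.73) at 3 h, 5.58 (adjusted p = 0.000829) at 6 h and 5.67 (adjusted p = 0.00058) at 12 h, and S100a8, its partner, 0.02, 4.17 and 4.33. Il1r2, a decoy receptor for interleukin-1, was 3.26 at 6 h and 4.05 at 12 h. The high values of Cxcl1 and Cxcl2 at 3 h therefore stood beside neutrophil markers at sham level, while their lower values at 12 h stood beside a marker mean in the range of 6 h, with S100a8, S100a9 and Il1r2 the genes called. The part of these cells in the later values was not tested.

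Beside the high values of Cxcl10 and Cxcl11, T and natural killer cell markers stayed near sham level. All 13 listed were measured, their mean lay between -0.08 and 0.12 on every array, and none was called by limma at 3, 6, 12 or 48 h (1, 0, 0 and 1 at an unadjusted p under 0.05). Markers of other cells did move. Of 8 monocyte and macrophage markers 1 was higher at 6 h, 1 at 12 h and 4 at 48 h. Their mean was 0.30 to 0.95 at 6 h, 0.58 to 1.30 at 12 h and 0.59 to 2.15 at 48 h. It was -0.04 to 0.03 in early shams and 0.43 in the 48 h sham. Of 6 microglial markers 3 were lower at 6 h, 3 lower at 12 h and 4 higher at 48 h, with means of -1.26 to -0.74, -1.17 to -0.92 and 0.89 to 1.43. In the 48 h sham the microglial mean was 0.36. Of 6 meningeal and fibroblast markers 1 was lower at 3 h, 3 at 6 h and 4 at 12 h, with means of -1.10 to -1.01, -1.51 to -0.67 and -1.71 to -0.57, 1 was higher at 48 h, and the mean was 0.85 in the 48 h sham. Of 7 endothelial markers 4 were lower and 1 higher at 6 h, with means of -0.71 to -0.65, and 2 lower and 1 higher at 12 h, with means of -0.57 to -0.04, against -0.07 to 0.08 in early shams. Of 2 erythrocyte markers, the haemoglobin gene Hbb was higher at 3 h (3.40), 6 h (3.88) and 12 h (2.53), with means of the pair of 1.40 to 2.17, 1.83 to 2.77 and 0.54 to 1.85, against -0.41 to 0.37 in early shams. Of 7 astrocyte markers 1 was higher and 2 lower at 12 h, and 3 were higher at 48 h. The astrocyte mean was 0.31 to 0.34 at 48 h and 0.08 in the 48 h sham. Of 8 neuronal markers 1 was lower at 12 h and 2 at 48 h. None of 5 choroid plexus markers was called by limma at the 4 times, but the largest difference at 3 h was 4.24. Their mean was 0.26, 1.19 and 1.47 on the 3 h arrays and -0.08 to 0.23 at 6 h. At 12 h it was 0.44, 0.17 and 1.27, against -0.02 to 0.01 in early shams. Without injured 12 h replicate 2 the markers lower at 12 h were 2 microglial, 0 meningeal, 1 endothelial, 2 astrocyte and 1 neuronal. No endothelial, erythrocyte or astrocyte marker was then higher. Their part in the chemokine values was not tested.

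**Figure D5:**
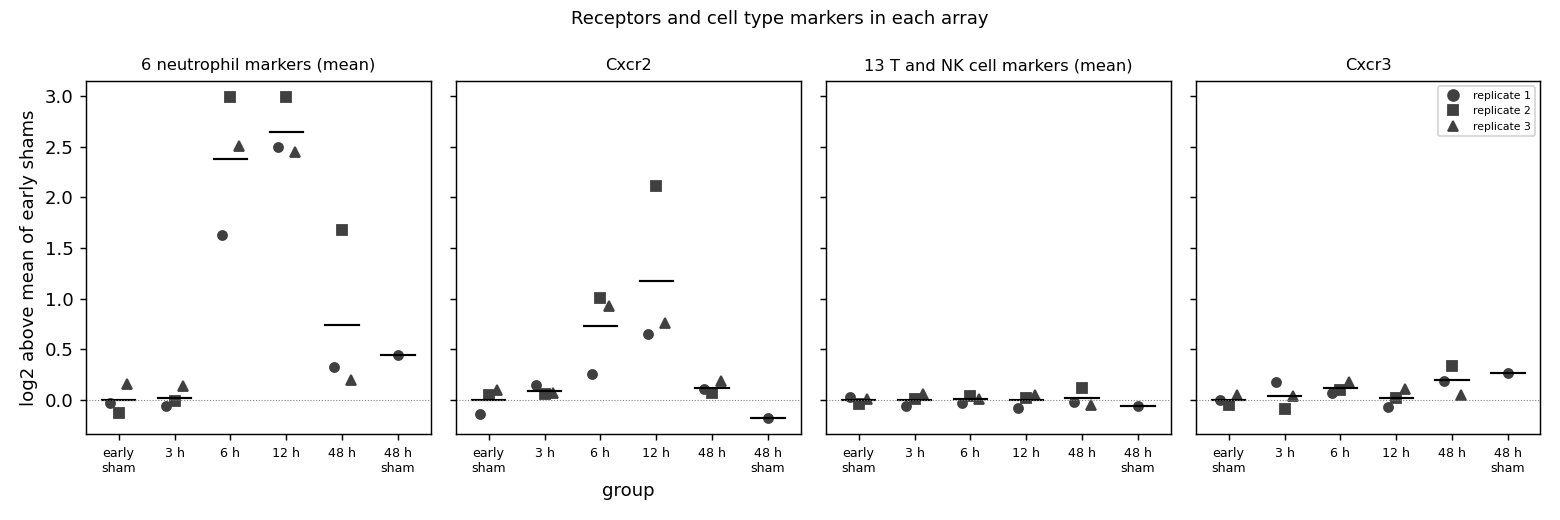
Each array's mean of 6 neutrophil markers, Cxcr2, mean of 13 T and natural killer cell markers, and Cxcr3 (y axis, log2 above early shams), by group (x axis); symbols are replicates and black lines group means. The neutrophil marker mean is at sham level at 3 h and at 1.63 to 2.99 at 6 and 12 h. Cxcr2 has its highest mean at 12 h through injured 12 h replicate 2 (2.11). Without that array its 12 h difference is 0.70, against 0.73 at 6 h. The T and natural killer cell markers stay between -0.08 and 0.12.

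The proteases that can release Cxcl16 were measured as well. Adam17 was called at 48 h alone of the 4 times (0.98, SE 0.14, adjusted p = 0.00124), at 1.01, 1.24 and 0.69, while the 48 h sham read 0.66. Adam10 was between -0.36 and 0.22 and was not called at any of them. Cxcl16 had its highest mean at 6 h, when Adam17 was 0.43 (adjusted p = 0.129).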

How the data were processed

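The deposited values are log2 intensities made by the authors with RMA, per the submitters' processing notes, and the base was taken as log2 because it is not given in the sources used here. RMA corrects background, quantile-normalises arrays and summarises probes, which limits differences in overall brightness. Each probe set's median over the 16 arrays was subtracted in the deposited table: all row medians were 0 and values ran from -5.64 to 5.98 with 2 decimals. Arrays have no read depth, so their number limits precision.

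Symbols came from the array annotation and were updated through the gene identifier for 20764 of the 20832 probe sets with 1 symbol. The 436 with several symbols and 9831 with none were left out. Probe sets of a gene were averaged into 14218 genes. One limma 3.58.1 model (R 4.3.3) of 6 groups, with adjustment over all genes, gave the log2 differences. The fit was tested on simulated data. Alternatives were a 2-fold minimum, quantile normalisation, median centring, single probe sets, array weights, fits of 2 groups, other sham groups, a replicate block and leaving out each array. Quantile normalisation was applied to the deposited centred values, after that of RMA. It gives the differences from the probe set medians the same distribution on every array.

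Named were all 5 members, the 3 genes most like each, and up to 4 per pathway list and comparison by size of difference. Ifnb1, Ifng and genes of marker lists fall outside this rule and were chosen after their values were seen. Members and lists were chosen with earlier results of these data known. Deviations of injured arrays from their group means had a median correlation of -0.01 over 18 same-numbered pairs, 3 of them over 0.1. Over 36 pairs of other numbers it was 0, with 6 over 0.1. The labels do not say whether same-numbered arrays share a batch.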

Additional observations from a re-analysis of the deposited data

Results flagged for a closer look

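Some members differed between times in injured cortex by a test of the difference itself, in limma with Benjamini-Hochberg adjustment. Between 12 and 48 h the log2 difference was -4.37 for Cxcl10 and -2.90 for Cxcl11, lower in 3 of 3 arrays for each, and -5.31 and -3.41 without injured 12 h replicate 2. Over the same step it was -1.58 for Cxcl2 and -0.77 for Cxcl16, also lower in 3 of 3 arrays, and both calls were lost when injured 12 h replicate 2 was left out (-1.02 and -0.71). Between 3 and 12 h, a comparison added after the data were seen, Cxcl2 was at -3.01, lower in 3 of 3 arrays, and it was called in all 13 alternatives. The share of all genes lower in 3 of 3 arrays was not counted for these steps, so that separation is description only.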

How the results depend on the processing

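The 50 member differences were refitted under 625 alternatives in all: 554 kept direction and side of the threshold, 46 lost the call, 17 gained one, and 8 turned sign, none of which was called either way. Against early shams, Cxcl16 at all 4 times, Cxcl2 at 3 and 6 h and Cxcl11 at 6 h were called in every alternative, and Cxcl1 at 3 and 6 h, Cxcl10 at 6 and 12 h and Cxcl11 at 12 h in 13 of 14. The cause of the changes below was not tested. With a single sham the control mean is the value of 1 array, and fewer arrays leave less to estimate the spread from.

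With the single sham of the same time, calls were lost for Cxcl1 (3.73 at 3 h, 4.32 at 6 h, 2.31 at 12 h), Cxcl2 (1.67 at 12 h), Cxcl10 (4.65 at 6 h, 4.72 at 12 h) and Cxcl11 (2.84 at 3 h, 3.28 at 12 h). Cxcl10 at 3 h was called with quantile normalisation (2.66), array weights (3.32), 2 groups in the fit (3.06) and all 4 shams (3.03). At 12 h the call was lost for Cxcl1 with quantile normalisation (1.64) and all 4 shams (1.91), and for Cxcl2 with quantile normalisation (1.26), weights (1.52) and 2 groups (1.77). With 2 groups the 48 h sham was called above early shams for Cxcl1 (1.11) and Cxcl11 (1.25). From 3 to 6 h Cxcl11 was called with weights (1.15) and Cxcl16 with weights (0.75) and 2 groups (0.69). From 6 to 12 h Cxcl2 was called with quantile normalisation and with weights (-2.78 in both). From 12 to 48 h the call was lost for Cxcl2 with quantile normalisation (-1.28), weights (-1.31) and 2 groups (-1.58), and for Cxcl16 with quantile normalisation (-0.71), weights (-0.63), 2 groups and the 2-fold minimum (-0.77 in both). From 3 to 12 h Cxcl1 was called with quantile normalisation (-1.79) and 2 groups (-1.61). Quantile normalisation turned the sign of uncalled values: Cxcl2 (-0.01) and Cxcl10 (-0.34) at 48 h, Cxcl10 against the 48 h sham (-0.09) and in that sham (-0.25), and Cxcl2 from 3 to 6 h (0.03).

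With 1 array left out, values ran from 2.46 to 3.38 for Cxcl11 at 3 h, 2.06 to 2.36 for Cxcl1 and 1.21 to 2.33 for Cxcl2 at 12 h, and 0.02 to 1.57 for Cxcl1 at 48 h (-1.09 to 0.46 against the 48 h sham). They ran from -3.03 to -1.91 for Cxcl2 and -0.61 to 1.13 for Cxcl10 from 6 to 12 h, and from -2.17 to -0.62 for Cxcl1, -2.14 to -1.02 for Cxcl2, -5.31 to -3.57 for Cxcl10, -3.41 to -2.30 for Cxcl11 and -0.96 to -0.49 for Cxcl16 from 12 to 48 h. Cxcl10 from 3 to 12 h ran from 0.77 to 2.50.

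The replicate block, for steps in injured cortex, lost the calls of Cxcl2 (-1.58, adjusted p = 0.0584, limma) and Cxcl16 (-0.77, adjusted p = 0.0691, limma) from 12 to 48 h. It changed no other member's call, and moved the genes called from 3 to 6 h from 170 to 79. Whether same-numbered arrays share more than a number is not given in the labels. No paired analysis was possible for injured against sham arrays because the sham labels give each array the same number. Genes called varied with the setting: 9 to 564 at 3 h (83 in the text's fit), 70 to 1024 at 6 h (379), 77 to 1230 at 12 h (692) and 242 to 2406 at 48 h (1377) against early shams, 0 to 129 (0) against the 48 h sham and 0 to 70 (1) in that sham. For the steps they were 39 to 1204 (170), 0 to 45 (2) and 288 to 2563 (2180), and 158 to 1405 (1142) from 3 to 12 h.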

Other observations

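Several chemokine genes outside the 5 members are represented by probe sets that differ. Of 5 probe sets for Cxcl3, a further Cxcr2 ligand near Cxcl1 in the genome, the 6 h means were 1.16, 0.94 and 0.49 for 3 of them and within 0.01 of sham for the others, and the gene's mean of 0.52 missed the threshold (adjusted p = 0.0535, limma). For Cxcl12 the 12 h means of its 3 probe sets were -0.68, -0.71 and -1.87. Both Cxcl9 probe sets gave like values at 6 h, 0.61 and 0.48, and at 12 h, 0.60 and 0.56.

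Pf4, platelet factor 4, read 1.19 above early shams at 48 h (SE 0.38, adjusted p = 0.0622, limma) and was not called at any of the 4 times. Ackr3, a scavenging receptor for Cxcl11 and Cxcl12, fell by 0.37 between 12 and 48 h (SE 0.07, adjusted p = 0.0042, limma), and this call held in all 6 fits without 1 array but was lost with a 2-fold minimum and with only 2 groups in the fit. Over the same step Cxcl12 rose by 1.21 (SE 0.23, adjusted p = 0.00419, limma), a call also held in those 6 fits and lost with only 2 groups.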
